A study of Mus musculus with 18 samples.

Results

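Voltage-gated and potassium channel genes were examined in the RNA of Neuro2A cells, a mouse neuroblastoma line of sympathetic type. The members were the loci named for a *Kcn* gene, for a *Cacna* gene or for a sodium channel pore gene (*Scn1a* to *Scn11a*), with the antisense RNA *Kcnq1ot1* and symbols ending in os left out. They comprised 146 loci under 118 symbols, of 52179 loci with a symbol and 168136 loci in all. Here each locus groups the transcripts that share an identifier in the deposited assembly. By class, 42 loci were voltage-gated potassium (Kv) subunits, 16 inward rectifiers, 16 two-pore-domain potassium channels, 8 potassium channels gated by calcium or sodium, 22 auxiliary potassium channel subunits, 26 calcium channel pore subunits, 5 calcium channel alpha2delta subunits and 11 sodium channel pore subunits. The rule used names alone and no measured value.

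All 18 samples came from wild-type Neuro2A cells and formed 6 groups of 3. Cells received a biotinylated *miR-92b* mimic at 25 nM (groups Nuc_92b and Whole_92b), a biotinylated scrambled sequence at the same concentration (Nuc_Scr and Whole_Scr) or neither (Nuc_Control and Whole_Control). RNA held on streptavidin beads was collected from isolated nuclei (Nuc) or from whole cell lysate (Whole), selected for poly(A) tails and sequenced as stranded libraries. The study's legends speak of separate experiments for the RT-qPCR check of the pulldown but only of samples for the sequencing, so that p-values measure the spread between these samples, which may be partly technical. A difference between nuclear and whole cell samples can arise in the RNA of the compartment or in what the beads retained, and these cannot be told apart.

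Voltage-gated channels open when the membrane potential changes. Sodium channels carry the rise of the action potential, calcium channels couple it to calcium entry and transmitter release, and potassium channels return the membrane to rest. Inward rectifiers and two-pore-domain channels hold the resting potential, and auxiliary subunits alter the trafficking and gating of the pores. These channels set the excitability of neurons and several are epilepsy genes.

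The deposited tables give no strand. The authors' identifiers run along each chromosome once for each strand, and 99.9% of 39741 loci that alone carried their symbol lay in the run of the strand of their gene in GENCODE M21. By this inferred strand, 119 member loci lay on the strand of the channel gene and 27 on the opposite one. Loci of the opposite strand are named for the channel but their reads come from RNA that does not encode it, if the inferred strand is right.

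The biotinylated RNA pairs with targets through the seed, bases 2 to 8 of the miRNA, given in capitals in the mature sequence of *miR-92b*-3p (RefSeq, GRCm38.p6, chr3:89227126-89227147, minus strand). The labels name *miR-92b* without its arm. Of the 41 channel genes tested on their own strand, 5 held the 7-base complement GTGCAAT in an annotated 3' UTR, and 3 of these held the 8-base match GTGCAATA. This is 12.2% and 7.32% of the channel genes. Among 9750 tested loci of 1 gene with an annotated 3' UTR the shares were 8.36% and 3.11%, and the median annotated 3' UTR was 1252 nucleotides long against 2104 for the channels. Sites of 4 of these genes are shown because they are where the mimic could pair with those channel RNAs, in GRCm38 and 5' to 3' on the strand of the gene, with the 7 complementary bases in capitals.
miR-92b-3p: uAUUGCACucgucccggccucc
Scn8a (chr15:101043146-101043152, plus strand): ttttgttccaatGTGCAATaaattctaacc
Cacna1i (chr15:80398020-80398026, plus strand): cttttggtctttGTGCAATaatcaacgtcc
Scn3a (chr2:65458622-65458628, minus strand): agtgggaaagttGTGCAATtgcctaacatg
Kcnh7, first site (chr2:62697954-62697960, minus strand): cacggtgtgaagGTGCAATttcatcctgta
Kcnh7, second site (chr2:62693617-62693623, minus strand): ctcacactagaaGTGCAATacctggcattt
The match extended to 8 bases in *Scn8a*, in *Cacna1i* and in the second site of *Kcnh7*. A match of letters does not show that the site was bound.

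Samples held from 3752991 to 22920037 reads on named loci. Whole_92b sample 3 stood apart, with the smallest share of its reads on the members (0.154%, against 0.240% to 0.367% in the other 17 samples). Of 14 sympathetic neuron markers found among the loci, 11 reached a mean of 10 normalized counts while 2, *Nefl* among them, had no read, and all 5 microglia and leukocyte markers summed to 1.54. Means of at least 10 were also found for 1 of 4 astrocyte, 2 of 4 oligodendrocyte, 1 of 3 endothelial, 1 of 4 muscle and 0 of 4 fibroblast markers, and their part in the results was not tested. *Malat1*, an RNA retained in the nucleus, had a mean of 91674 in nuclear and 44593 in whole cell samples, and *Eef2*, a translation factor mRNA, 2620 and 19471.

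RNA of part of the channel loci was found in Neuro2A cells. The level required for testing, 10 normalized counts on average across all samples, was reached by 47 of the 146 loci, which stood for 43 of the 118 symbols. On the strand of the gene, 41 symbols reached it. Another 62 loci had reads below that level, 10 had at most 3 reads in all samples together, and 27 had none. Over all 52179 named loci, 15579 reached the level and 28348 had a read in any sample. Reads were found in all 18 samples for 22 loci, of which 21 lay on the strand of the gene.

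The classes differed in how many members were found. Of the 10 calcium channel pore symbols, 8 were tested, 7 of them on the strand of the gene, and none was without a read. Of the 10 sodium channel symbols 6 were tested, and *Scn10a* and *Scn11a*, channels of sensory neurons, had no read. Of 40 Kv symbols 13 were tested and 17 had no read, among them *Kcna1*, *Kcna3*, *Kcna5*, *Kcna6*, *Kcnb2*, *Kcnc2* and *Kcnd2*, which encode pores of delayed rectifier and A-type potassium currents. Among the 14 two-pore-domain symbols *Kcnk3* alone reached the level for testing, 10 had fewer reads and 3 had none, and none of the 4 alpha2delta symbols reached it. A channel without a read was not detectable at this depth in the poly(A) RNA held on the beads, which does not show that it is absent from the cells.

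**Figure D1:**
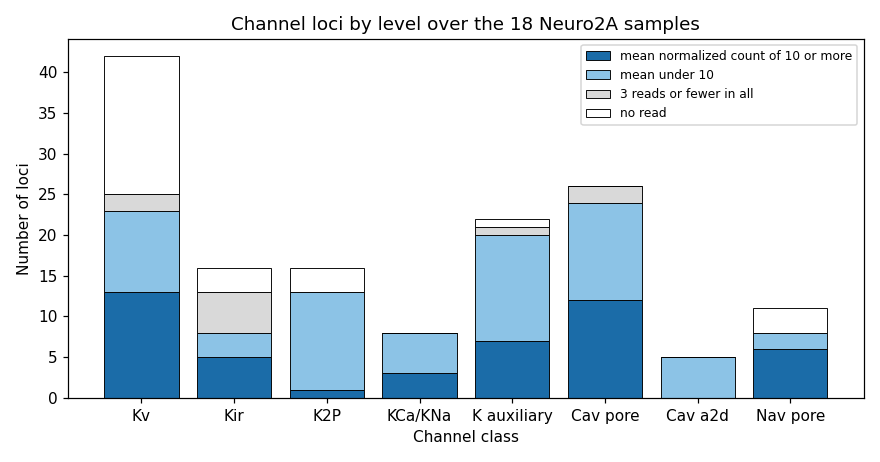
Number of member loci (y axis) in each channel class (x axis), stacked by level over the 18 samples. Kv, Kir, K2P, KCa/KNa and K auxiliary are the potassium channel classes, Cav pore and Cav a2d the calcium channel subunits and Nav pore the sodium channel pores. The 47 tested loci are the dark segments, and 17 of the 42 Kv loci are white, without a read.

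The number of members found in all 3 samples of a group differed between groups, as it did over all named loci. A read in each of the 3 samples was present for 58 members in Nuc_92b, 48 in Nuc_Control and 34 in Nuc_Scr. The corresponding numbers were 33 in Whole_Control, 32 in Whole_Scr and 31 in Whole_92b. The shares of the members were 39.7% in Nuc_92b, 32.9% in Nuc_Control, 23.3% in Nuc_Scr and 21.2% to 22.6% in the whole cell groups, beside 34.3%, 28.2%, 23.8% and 23.2% to 27.8% of the 52179 named loci. Single samples moved these counts, which can only rise when fewer samples must hold a read. With 1 sample of the group left out, the highest counts were 68 in Nuc_92b, 62 in Nuc_Control and 41 in Nuc_Scr. They were 48 in Whole_Control, 43 in Whole_Scr and 38 in Whole_92b, the last without its sample 3. By these counts Nuc_Scr no longer lay above Whole_Control and Whole_Scr. Thinning every sample to 3752991 reads left the order of the counts over all 3 samples in place. Then 55.5, 47.8 and 33.6 members were expected in the nuclear groups (*miR-92b*, control and Scr) and 29.6 to 32.5 in the whole cell groups. The 47 tested loci lacked a read in between 0 and 15 cases per sample. Whole_92b sample 3 lacked 15, Whole_Scr sample 1 lacked 13 and Nuc_Scr sample 2 lacked 11, while Nuc_Control samples 1 and 2 lacked none.

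Per unit of length, on the FPKM scale of the authors, *Scn8a* was the most abundant channel RNA in whole cell samples at 41.9 ± 9.89 (SD, n = 9). It encodes Nav1.6, the sodium channel of the axon initial segment. *Cacna1c*, the Cav1.2 L-type calcium channel, followed at 36.1 ± 9.45. They differed by less than either SD. *Kcnh2*, the ERG potassium channel, had 24.7 ± 6.50 FPKM. The locus that joins *Kcnab2*, a Kv beta subunit, with the gene model *Gm16334* had 20.7 ± 10.7, which cannot be assigned to *Kcnab2* alone. *Kcnab1*, another Kv beta subunit, had 13.1 ± 5.29 and *Kcnk3*, the acid-sensitive leak channel TASK-1, 12.2 ± 4.35. The locus that joins *Kcnj14* with *Grwd1*, so that its level cannot be assigned to the channel, had 9.99 ± 5.19 and *Cacna1b* 9.94 ± 2.08, and 31 of the 41 channel genes tested on the gene strand lay at 7.60 or below. The lowest was *Kcnh1* at 0.159 ± 0.176.

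Of all loci under a channel name, the one with most reads was not the channel mRNA by its inferred strand. Locus XLOC_061672, named *Kcnj6*, had a mean normalized count of 7150 and lay on the strand opposite to *Kcnj6* (chr16:94748636-94997701 in GRCm38, minus strand), the gene of the inward rectifier GIRK2. Its count per FPKM was the fourth highest of 15579 tested loci and implied a transcript of about 65016 nucleotides. *Kcnq1ot1*, a known very long antisense RNA, ranked just above it. The locus on the *Kcnj6* strand had reads in only 4 of the 18 samples, with a mean normalized count of 2.29. *Cacna1d* was alike: its locus on the gene strand had 2 reads in all samples together, while the opposite-strand locus XLOC_044609 had a mean of 43.4.

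**Figure D2:**
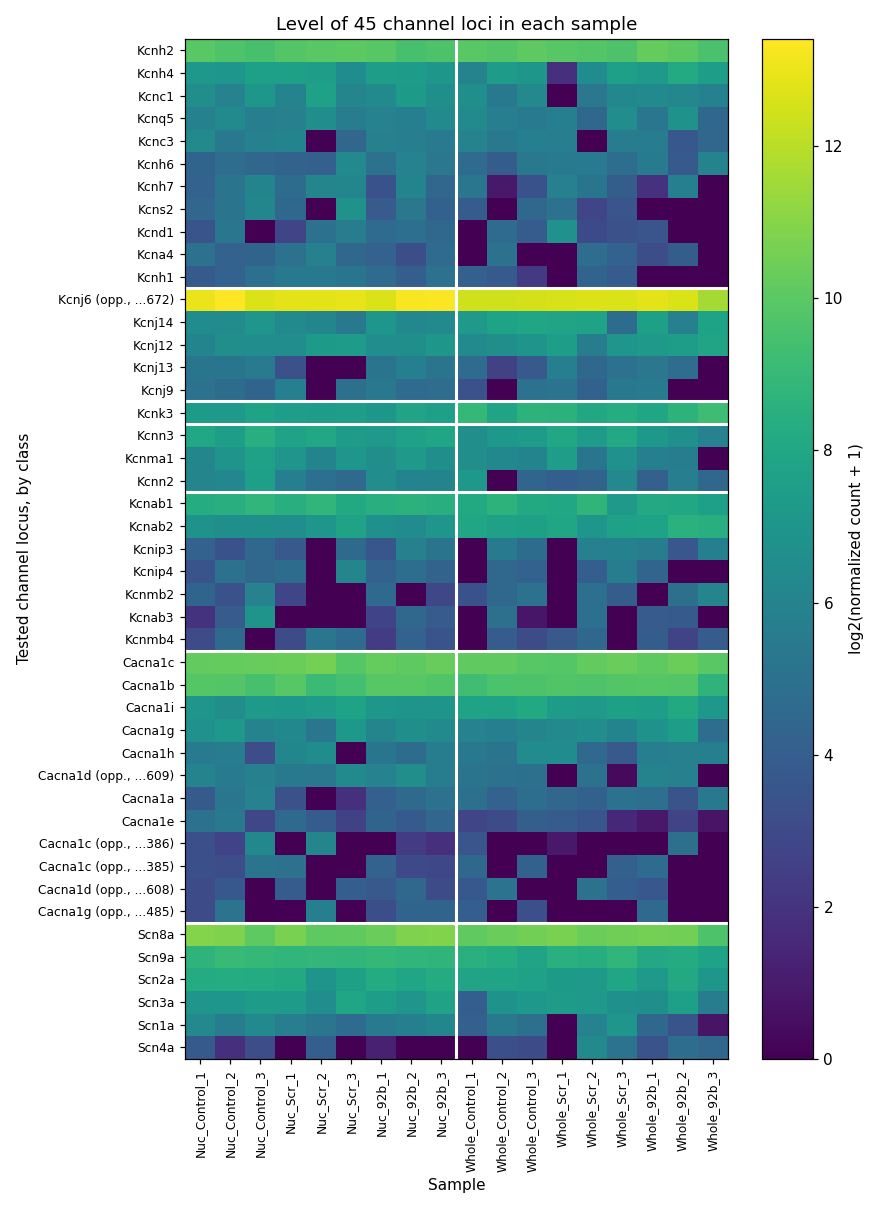
Level of 45 of the tested channel loci (rows, by class and then by mean) in the 18 samples (columns, nuclear left and whole cell right of the white line), as log2(normalized count + 1). Opposite-strand loci are marked opp. with the last 3 digits of their identifier. *Kcnj6* (opp.) is brightest, and dark cells, without a read, lie among the lower rows of each class and most often in Whole_92b sample 3.

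Nuclear and whole cell samples were compared to show the compartment balance of each channel RNA. Differences are given as log2 of nuclear over whole cell on log2(normalized count + 1), a scale that shrinks the change of a locus with low counts. They were tested two-sided with limma in 1 model of the 6 groups, with p-values adjusted by the Benjamini-Hochberg method over 15579 loci and a threshold of 0.05. Averaged over the 3 treatments, 8 of the 47 tested channel loci passed. Of these, 6 were higher in nuclear samples (15.3% of all 15579 loci were) and 2 were lower (15.8% of all loci were). The share of channel loci called, 17.0%, was below the 31.0% of all loci. The median difference was 0.51 for the channel loci and 0.14 for all loci, and 34 of the 47 (72.3%) lay above 0 against 56.6% of all loci. The gap between the medians depended on the filter: with loci of a mean of at least 1 they were 0.27 and 0.20, and with no filter 0.23 and 0.17. Without Whole_92b sample 3 they were 0.38 and 0.10. The median of the 41 loci on the gene strand was 0.41. It is a description of a list of mostly low loci, many of which did not pass the test.

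By treatment, no channel locus passed in control or in Scr samples, while 5 passed with *miR-92b*. In control, 9.85% of all loci passed (2.94% higher and 6.91% lower), 7 members had an unadjusted p below 0.05 in limma, DESeq2 called *Scn9a*, *Kcnj6* and *Kcnk3* and edgeR *Kcnk3* alone. In Scr, 5.17% of all loci passed (1.46% higher and 3.7% lower), 8 members had an unadjusted p below 0.05, and DESeq2 and edgeR called 0. With *miR-92b*, 3 members were higher in the nucleus (6.66% of all loci) and 2 lower (6.63%). The median differences of the members were 0.43 in control, 0.15 in Scr and 0.65 with *miR-92b*, beside 0.06, 0.01 and 0.26 over all loci. Without Whole_92b sample 3 the *miR-92b* medians were 0.34 and 0.12. The Scr median of the members was 0.08 without Nuc_Scr sample 3, 0.05 without Whole_Scr sample 1, 0.26 without Nuc_Scr sample 2, -0.0048 without Nuc_Scr sample 1 and -0.02 without Whole_Scr sample 2, and the control median was 0.27 without Whole_Control sample 1. With no filter the control and Scr medians were 0 for members and for all loci. A total of 22 members lay above 0 in all 3 treatments (46.8%, against 32.6% of all loci) and 4 below 0 in all 3 (8.51%, against 25.9%). Those 4 were *Kcnk3*, *Kcnab2*, *Kcnj14* and *Cacna1h*.

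Separation of the samples within a treatment was read in the same way. In control, 9 members had all nuclear above all whole cell samples (18.8% of all loci did), among them *Scn9a*, *Scn2a*, *Kcnn3* and *Cacna1c*, and 4 had them below (19.4%), *Kcnk3*, *Kcnab2*, *Kcnj14* and *Cacna1i*. In Scr, 4 lay above (10.7%), among them *Kcnh1* and the opposite-strand loci of *Kcnj6* and *Cacna1d*, and 3 below (11.6%), *Kcnk3*, *Kcnj13* and *Cacna1a*. With *miR-92b*, 12 lay above (19.7%), among them *Scn9a*, *Kcnh1*, *Kcnma1*, *Kcnn2* and *Kcnn3*, and 6 below (16.5%), among them *Kcnk3*, *Kcnab2* and *Cacna1i*. As shares of the 47 members these counts lay near those of all loci or below them, except for the 12 above with *miR-92b*.

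Single libraries moved these counts. The 8 calls over 3 treatments became 13 without Whole_92b sample 2 and 7 without Whole_92b sample 3. The 5 calls with *miR-92b* became 1 without Nuc_92b sample 3, 2 without Nuc_92b sample 1, 3 without Nuc_92b sample 2, 2 without Whole_92b sample 3 and 9 without Whole_92b sample 1. The count in control rose from 0 to 3 without Whole_92b sample 3 and to 1 without Whole_92b sample 1 or Whole_Control sample 1 or 2. The count in Scr rose from 0 to 3 without Whole_92b sample 3, and to 1 without Nuc_Scr sample 1 or Whole_Scr sample 2 or 3.

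**Figure D3:**
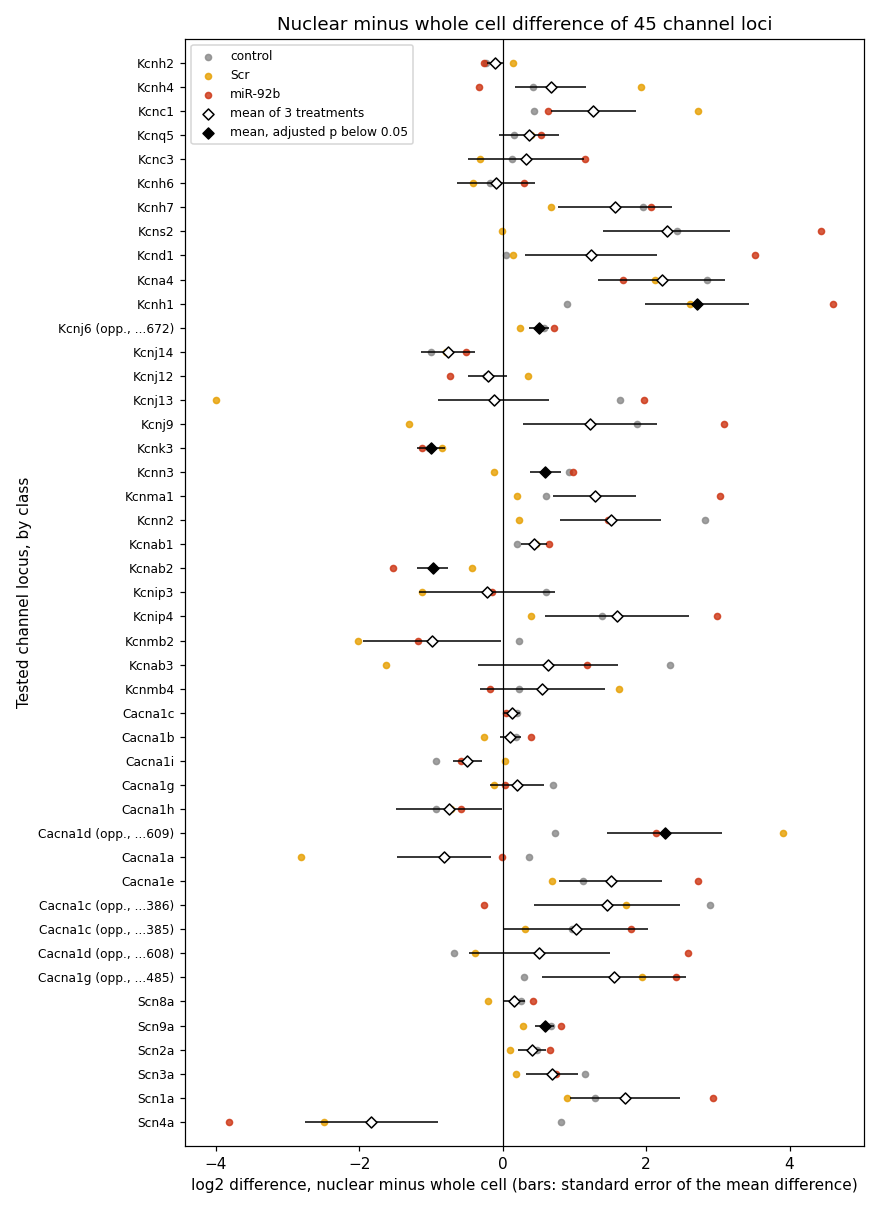
Nuclear minus whole cell difference on the log2 scale (x axis) for 45 of the tested channel loci (rows, by class). Coloured points are the single treatments, diamonds the mean of the 3 treatments with its standard error, and filled diamonds the 7 loci with an adjusted p below 0.05, of which 5 lie right and 2 left of 0.

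*Kcnk3* was lower in nuclear than in whole cell samples. Its normalized counts were 134 at the lowest, 181 at the median and 229 at the highest of 9 nuclear samples, against 231, 398 and 599 in 9 whole cell samples. The ranges did not overlap, and it was the only tested channel locus of which this held over all 18 samples (4.4% of all loci lay wholly below in nuclear samples and 2.91% wholly above). The mean difference was -1.0 (SE 0.20, limma adjusted p = 0.00040), from -0.85 in Scr to -1.12 with *miR-92b*. On the FPKM scale the means were 3.55 ± 0.618 in nuclear and 12.2 ± 4.35 in whole cell samples. The call held in each of 30 alternative analyses. *Kcnk3* lies at chr5:30588170-30625271 and spans 37.1 kb.

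*Kcnab2* was the other channel locus lower in nuclear samples. It encodes Kv beta 2, a cytosolic subunit that binds Kv1 channels. Its normalized counts ranged from 87.9 through a median of 104 to 211 in nuclear samples and from 134 through 222 to 378 in whole cell samples, so that the ranges overlapped. The mean difference was -0.98 (SE 0.21, limma adjusted p = 0.0011). With *miR-92b* the values were 104, 87.9 and 126 in the nuclear samples and 222, 378 and 339 in the whole cell samples, which did not overlap, with a difference of -1.54 (SE 0.37, limma adjusted p = 0.0071) that kept its call when any of the 18 samples was left out. The locus is joined with the gene model *Gm16334* and its value cannot be split between them. On the FPKM scale the difference was -0.55 and was not called (limma adjusted p = 0.36).

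The other auxiliary potassium channel subunits did not pass. *Kcnab1*, the Kv beta 1 subunit, had a difference of 0.43 (SE 0.18, limma adjusted p = 0.076), with medians of 349 in nuclear and 274 in whole cell samples, and was called without Whole_Scr sample 2 and with samples scaled to the same median. *Kcnip3*, a calcium-binding protein of Kv4 channels, had no read in 1 nuclear and 2 whole cell samples and up to 59.2 in others. Its difference of -0.23 (SE 0.95) had no stable sign when single samples were left out. Over the 7 auxiliary loci, 4 differences lay above 0 (56.6% of all loci did), and none but that of *Kcnab2* was called (31.0% of all loci were).

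Among Kv channels 2 of the 13 tested loci passed, both higher in nuclear samples (15.3% of all loci were). The differences of 11 lay above 0 (56.6% of all loci did), with a median of 0.67 over the 13 beside 0.14 over all loci. Level matters here. Over protein-coding channel genes of all classes on the gene strand, the median was 0.63 at means of 10 to 50 normalized counts. It was 0.63 from 50 to 200 and 0.21 from 200.

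*Kcnh1*, the EAG1 channel, was a low RNA with the largest difference among the called channel loci, 2.70 (SE 0.73, limma adjusted p = 0.0064). Its normalized counts were 13.0 at the lowest, 28.5 at the median and 42.7 at the highest in the nucleus, compared with 0, 3.90 and 19.2 in whole cell samples. None of the 3 Whole_92b samples held a read, while the Nuc_92b samples had 24.6, 15.8 and 32.2. Against a floor of 3 reads over the whole group, the Nuc_92b mean of 24.2 ± 8.17 (SD, n = 3) was 27.3-fold higher. This floor rests on the summed depth of the group, so the fold is no firm bound. Most of the group's reads on named loci were in Whole_92b sample 3, which stood apart (10562601, against 6334513 and 4096874). The limma difference with *miR-92b*, 4.60 (SE 1.26, adjusted p = 0.017), depends on the pseudocount and is no bound, and its call was lost without Nuc_92b sample 1 or 3. *Kcnh1* was called over the 3 treatments in each of the 29 alternatives that tested it.

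*Kcnh2*, a Kv channel with many reads, had medians of 919 in nuclear and 977 in whole cell samples and a difference of -0.11 (SE 0.11, limma adjusted p = 0.46). *Kcns2*, a silent modifier subunit named here after its values were seen, also lacked a read in all 3 Whole_92b samples. Its Nuc_92b mean of 22.9 ± 13.5 (SD, n = 3) was 25.8-fold higher than the same floor of 3 reads over that group. Its difference with *miR-92b* did not pass in limma (adjusted p = 0.057). DESeq2 and edgeR called *Kcns2* with *miR-92b* and over the 3 treatments. With *miR-92b*, limma called it with a pseudocount of 0.5, sample weights, the sample number as a block or the compared groups alone. It was also called there without Nuc_Scr sample 2 or 3 or Whole_Control sample 2.

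**Figure D4:**
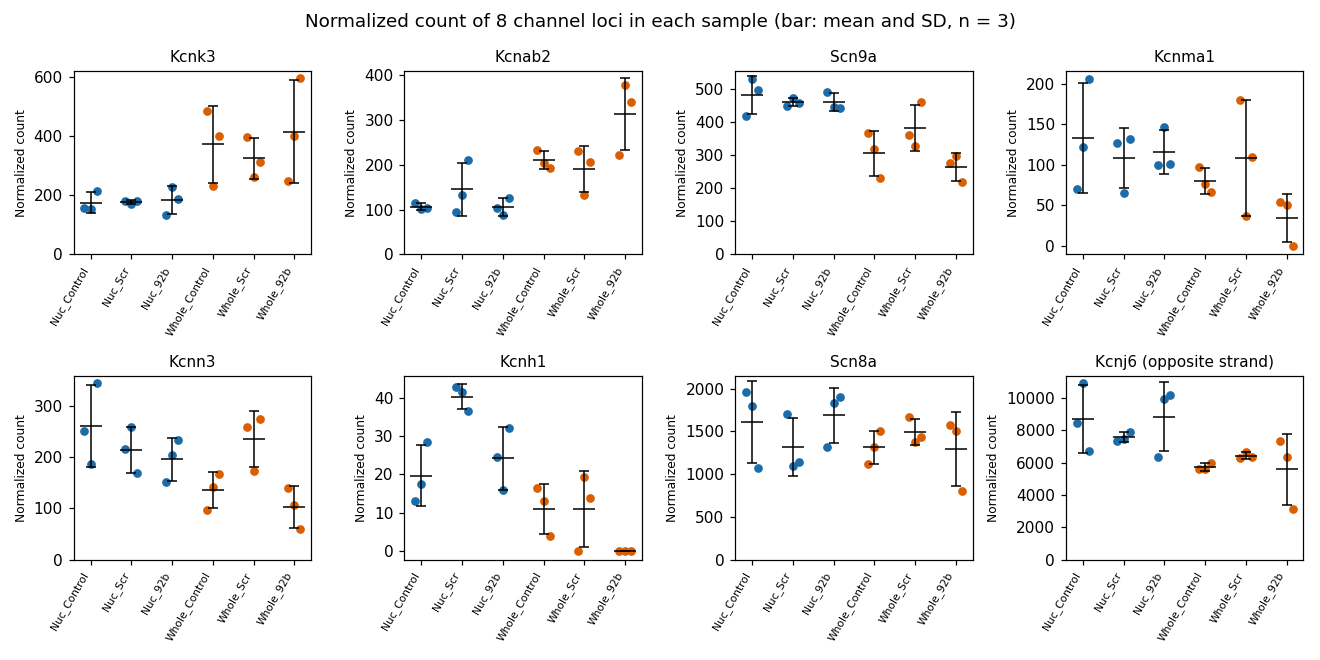
Normalized counts (y axis, linear and including 0) of 8 channel loci in each sample by group (x axis), nuclear groups in blue and whole cell groups in orange, with the mean and SD of the 3 samples in black. *Kcnk3* lies lower in every nuclear sample than in any whole cell sample, while *Scn8a* overlaps between compartments.

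Of the 6 tested sodium channel loci *Scn9a* alone passed, as higher (15.3% of all loci were). Differences above 0 were found for 5 (56.6% of all loci), and the median over the 6 was 0.50. *Scn9a* encodes Nav1.7, the sodium channel of sensory and sympathetic neurons. Its normalized counts were 417 at the lowest, 458 at the median and 530 at the highest in the nucleus, compared with 219, 319 and 461 in whole cell samples. One whole cell sample, Whole_Scr sample 3, reached the nuclear range. The difference was 0.59 (SE 0.13, limma adjusted p = 0.0017) over the treatments and 0.81 (SE 0.23, adjusted p = 0.023) with *miR-92b*, the latter lost without any 1 of the Nuc_92b samples and without Whole_92b sample 3. On the FPKM scale it was 0.43 and was not called (limma adjusted p = 0.19).

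*Scn8a*, the sodium channel with most reads, ranged from 1069 through a median of 1705 to 1963 in nuclear samples and from 801 through 1439 to 1669 in whole cell samples. The ranges overlapped and the difference was 0.16 (SE 0.15, limma adjusted p = 0.44), with -0.04 on the FPKM scale. *Scn2a*, the Nav1.2 channel of immature axons, had medians of 299 and 205 and a difference of 0.41 (SE 0.19, limma adjusted p = 0.11), called without Nuc_Scr sample 2 and without Whole_92b sample 2. The single value below 0 belonged to *Scn4a*, the skeletal muscle channel, a low RNA without a read in 6 samples.

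Calcium channel pores on the gene strand did not pass over the 3 treatments. *Cacna1c* had medians of 1202 in nuclear and 1108 in whole cell samples and a difference of 0.13 (SE 0.11, limma adjusted p = 0.40). *Cacna1b*, the Cav2.2 N-type channel of nerve terminals, had medians of 897 and 831 and a difference of 0.11 (SE 0.14, limma adjusted p = 0.61), which turned to -0.02 without Whole_92b sample 3. In both RNAs the nuclear and whole cell ranges overlapped. *Cacna1i*, the Cav3.3 T-type channel, had medians of 137 in nuclear and 199 in whole cell samples and a difference of -0.49 (SE 0.20, limma adjusted p = 0.065), called by DESeq2 but not by edgeR, and in limma without Nuc_Scr sample 3 or Whole_92b sample 3.

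The call in the calcium class came from the opposite-strand locus XLOC_044609 named *Cacna1d*, with a difference of 2.26 (SE 0.80, limma adjusted p = 0.034). It had 40.3 to 96.3 normalized counts in nuclear samples and 0 to 62.1 in whole cell samples, where 2 samples lacked a read. Neither DESeq2 nor edgeR called it, the limma call held without Nuc_Control sample 2, Nuc_Scr sample 1 or 2, Nuc_92b sample 3, Whole_Scr sample 2 or Whole_92b sample 1 or 2 and was lost without any other sample, and it was named after its values were seen. The 6 opposite-strand loci that were tested all had differences above 0 (56.6% of all loci did), with a median of 1.24 beside 0.14 over all loci. Tested calcium pore loci of both strands stood for fewer genes than loci (12 loci, 8 symbols), so these loci may not be independent. The opposite-strand locus named *Cacna1g* had 18.4 ± 31.9 (SD, n = 3) in Nuc_Scr, an SD above its mean, and no read in Whole_Scr. Of these 6 loci 2 were called, both higher (15.3% of all loci were).

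The most-read of these, the opposite-strand *Kcnj6* locus, had 6373 normalized counts at the lowest, 7923 at the median and 10907 at the highest in the nucleus, compared with 3133, 6283 and 7353 in whole cell samples. Its difference was 0.51 (SE 0.14, limma adjusted p = 0.0087), lost on the FPKM scale (adjusted p = 0.058) and after quantile normalization (adjusted p = 0.11). The inward rectifiers on the gene strand did not pass. *Kcnj14*, the Kir2.4 channel, whose locus is joined with the gene *Grwd1* and whose value cannot be split between them, had medians of 82.3 in nuclear and 216 in whole cell samples and a difference of -0.77 (SE 0.38, limma adjusted p = 0.13), which DESeq2 and edgeR called, as did limma without Whole_Scr sample 3 or Whole_92b sample 2. *Kcnj12*, the Kir2.2 channel, had medians of 96.8 and 132 and a difference of -0.21 (SE 0.27, limma adjusted p = 0.59).

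All 3 tested potassium channels gated by calcium lay above 0 (56.6% of all loci did), and *Kcnn3* passed over the 3 treatments, as higher (15.3% of all loci were). *Kcnn3*, the SK3 channel of the afterhyperpolarization, had 150 normalized counts at the lowest, 215 at the median and 343 at the highest in the nucleus, compared with 60.5, 141 and 273 in whole cell samples. Its difference was 0.59 (SE 0.22, limma adjusted p = 0.041), which 14 of 30 alternatives did not call, among them those without Nuc_Control sample 1 or 3, Nuc_Scr sample 1 or 2, Nuc_92b sample 2 or 3, Whole_Control sample 1 or 2, Whole_Scr sample 2 or Whole_92b sample 3. The nuclear samples lay wholly above in control and with *miR-92b*, while in Scr the difference was -0.12. *Kcnma1*, the BK channel, passed with *miR-92b*. Its Nuc_92b samples had 99.7, 147 and 102 and its Whole_92b samples 54.0, 49.98 and 0, with a difference of 3.03 (SE 1.01, limma adjusted p = 0.048). That call was lost without Whole_92b sample 3, the sample without a read, and with DESeq2 and edgeR. Of the analyses with 1 sample left out, those without Nuc_Scr sample 2, Whole_Scr sample 2 or Whole_92b sample 1 or 2 kept it. *Kcnn2*, the SK2 channel, ranged from 0 to 191 over the samples and its difference of 1.5 (SE 0.71) did not pass (limma adjusted p = 0.11) unless Whole_Control sample 1 was left out.

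Genes that work with these channels were listed by symbol: calcium channel beta and gamma subunits, sodium channel beta subunits, HCN channels, ankyrins, fibroblast growth factor homologous factors and others. Of 32 tested loci, 8 were higher and 4 lower in nuclear samples over the 3 treatments, or 37.5% beside 31.0% of all loci. *Hcn2*, a pacemaker channel, had medians of 463 in whole cell and 197 in nuclear samples, without overlap (4.4% of all loci lay wholly below). Its difference was -1.49 (SE 0.20, limma adjusted p = 3.8e-06). *Cacnb3*, a cytosolic calcium channel beta subunit, had medians of 236 and 72.4 and a difference of -1.69 (SE 0.32, limma adjusted p = 0.00027). *Stac*, an adaptor of calcium channels, had a difference of -0.94 (SE 0.29, limma adjusted p = 0.018). *Hcn2*, *Cacnb3* and *Stac* were named for the smallest p in this comparison, so the lack of overlap of *Hcn2* is no added support.

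The partner genes higher in nuclear samples included *Fgf14*, *Ank2* and *Snap25*. *Fgf14*, a cytosolic partner of sodium channels, had medians of 1041 in nuclear and 606 in whole cell samples and a difference of 0.76 (SE 0.11, limma adjusted p = 1.7e-05). *Ank2*, which encodes ankyrin-B, had medians of 3802 and 2486 and a difference of 0.68 (SE 0.12, limma adjusted p = 9.8e-05). *Snap25*, a SNARE protein that binds calcium channels, had medians of 3445 and 2260 and a difference of 0.66 (SE 0.11, limma adjusted p = 5.6e-05). In these 3 genes every nuclear sample lay above every whole cell sample (2.91% of all loci did). They were named for the smallest p in this comparison, so their separation is no added support.

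Whether the compartment balance changed with the mimic was tested as a difference between treatments. No channel locus passed for *miR-92b* minus Scr, Scr minus control or *miR-92b* minus control in limma, and 1, 0 and 0 of all 15579 loci passed (0.00642%, 0.0% and 0.0%). DESeq2 and edgeR called no channel locus in these comparisons. The numbers of members with an unadjusted p below 0.05 were 3, 1 and 1. The passes of *Scn9a*, *Kcnma1*, *Kcnh1*, *Kcnk3* and *Kcnab2* with *miR-92b* are therefore not shown to differ from the other treatments. The 3 were *Kcnj13*, *Kcnab2* and *Kcnn3*, and the others *Kcnj13* and *Kcnh1*. The smallest adjusted p, 0.68 in limma for *miR-92b* minus Scr, was shared by *Kcnab2*, *Kcnj13* and other loci, so it singles out no locus. The log2 difference of *Kcnab2* changed by -1.11 from Scr to *miR-92b* (SE 0.52). Over all tested members this change ran from -2.26 to 5.97.

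*miR-92b* and Scr samples were also compared within a compartment, the comparison that addresses which RNAs the miRNA retained. No channel locus passed in nuclear samples, where 0.0% of all loci passed, 3 members had an unadjusted p below 0.05 and DESeq2 and edgeR called 0. None passed in whole cell samples, where 0.00642% of all loci passed and 7 members had an unadjusted p below 0.05. There edgeR called 0 members and DESeq2 called 2, *Kcnh1* and *Kcns2*, both lower with *miR-92b* and both without a read in Whole_92b. Of all 15561 loci that DESeq2 tested, it called 96 higher and 80 lower. With 3 samples against 3, an exact permutation test of a single locus cannot give a p below 0.1.

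The 4 channel genes whose sites are printed above did not pass either. In whole cell samples the differences of *miR-92b* minus Scr were -0.27 (SE 0.25) for *Scn8a*, 0.16 (SE 0.35) for *Cacna1i*, -0.47 (SE 0.63) for *Scn3a* and -2.46 (SE 1.38) for *Kcnh7*, with limma adjusted p between 0.58 and 0.92. In nuclear samples they ranged from -1.08 for *Kcnh7* to 0.37 for *Scn8a*, with limma adjusted p = 0.99996 for each. The median of the 5 genes with a site was -0.27 in whole cell and -0.10 in nuclear samples, beside -0.05 and 0.19 for the 36 tested channel genes without a site. Over all loci with a site the medians were 0.00 and 0.03, and without a site 0.06 and 0.08.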

How the data were processed

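RNA from 18 Neuro2A samples was measured by RNA-seq after streptavidin pulldown. Per the submitters' processing notes, reads were converted with bcl2fastq 2.17, trimmed with Trimmomatic 0.30, aligned with TopHat2 to GRCm38 (mm10) and assembled with Cufflinks. The authors deposited a signal per locus and sample, normalized counts, in which reads were divided by a size factor, and the deposited FPKM values are also scaled by transcript length. All 635205 values above 0 were whole reads within a tolerance, so reads were recovered (100%). The tolerance was 0.02 and grew with the read number at high counts, where the check was weak.

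Loci with a symbol and a mean of at least 10 were tested with limma 3.58.1 on log2(normalized count + 1), with a variance trend (R 4.3.3). Alternatives were pseudocounts of 0.5 and 8, filters of 1 and 50 or none, FPKM with a pseudocount of 0.1, other scalings, the compared groups alone, sample weights, the sample number as a block, edgeR 4.0.16 and DESeq2 1.42.0 on the reads, and each sample left out. The fits were tested on simulated data. Counting members on the gene strand alone was added after the data were seen. Loci without a symbol, with 4.51% to 15.3% of the reads, were left out. The authors' comparison tables (FPKM, fold changes, p-values) were not used.

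The members and lists were chosen with earlier results of these data known. Loci described with their tests are, in each class, the 3 tested with the highest mean, the 3 called with the smallest p per direction in each nuclear against whole cell comparison, up to 5 called in each other comparison, and 3 called partner loci per direction. Implied length is count over FPKM, scaled on 2031 genes of 1 transcript. Certain items are not reported here, so that counts can exceed the genes named.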

Additional observations from a re-analysis of the deposited data

Results flagged for a closer look

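*Kcnj13*, the Kir7.1 channel, moved in opposite directions in 2 treatments. In control, its nuclear samples had normalized counts of 36.1, 36.3 and 45.9 and its whole cell samples 24.7, 5.19 and 12.5, so that all nuclear samples lay above. In Scr, its nuclear samples had 9.14, 0 and 0 and its whole cell samples 55.2, 21.3 and 32.2, so that all lay below. The difference between the 2 effects, Scr minus control, was -5.64 on the log2 scale (SE 1.90) and did not pass in limma (adjusted p = 0.89). No other tested channel locus separated in opposite directions in 2 treatments.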

How the results depend on the processing

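In control, limma called 0 channel loci, while 1 was called with a pseudocount of 8, on the FPKM scale, with samples scaled to the same median, after quantile normalization and by edgeR, 2 with a filter of 50, 3 by DESeq2, 7 with the compared groups alone and 9 with sample weights. In Scr, 2 were called on the FPKM scale. With *miR-92b*, the 5 calls became 3 without a filter, 2 on the FPKM scale and 3 with the compared groups alone. Over the 3 treatments, the 8 calls became 2 on the FPKM scale and 14 with sample weights. For *miR-92b* against Scr in whole cell samples, DESeq2 called 2, beside 96 higher and 80 lower of 15561 loci. Leaving out single samples gave 0 to 3 calls in control and in Scr, 1 to 9 with *miR-92b* and 6 to 13 over the 3 treatments, 9 to 12 partner loci, and 0 in the other comparisons. The cause of these changes was not tested. On the gene strand alone, 6 loci passed over the 3 treatments. Deviations of samples with the same number correlated between -0.04 and 0.11 (median 0.0022, over 0.1 in 1 of 45 pairs). Weak correlations cannot exclude that samples of the same number shared a run or an experiment. In the nuclear groups, sample 1 had 9.96% to 10.8% of its reads on loci without a symbol, and samples 2 and 3 had 13.1% to 15.3%. The whole cell groups did not split in this way. A replicate block gave 9 calls over the 3 treatments and 7 with *miR-92b*. *Scn8a* turned to -0.036 on the FPKM scale, *Cacna1b* to -0.020 without Whole_92b replicate 3, and *Kcnip3* to 0.24, 0.13, 0.094 and 0.11 without Nuc_Scr replicate 2, Whole_Control replicate 2, Whole_Scr replicate 2 and Whole_Scr replicate 3. Over leave-one-out analyses, *Cacna1b* ranged from -0.020 to 0.17 and *Kcnip3* from -0.88 to 0.24. Equal sample medians shifted the all-locus median by 0.12 in control, and that of the channel loci there from 0.43 to 0.55. Among all called loci in control, 29.8% were higher in nuclear samples, against 46.5% with this scaling and 9.91% on the FPKM scale.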

Other observations

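Channel genes are long, and the compartment balance over the 3 treatments was set beside the genomic span. Of 39 tested protein-coding channel genes on the gene strand, 64.1% spanned at least 50 kb, against 28.8% of 9784 such genes. The median difference of the channel genes was 0.47 below 50 kb (14 genes), 0.27 from 50 to 150 kb (9), 0.29 from 150 to 300 kb (8) and 1.51 from 300 kb (8). Over all such genes the medians were -0.20, -0.04, 0.18 and 0.42. Across the 39 channel genes, Spearman's rho of span and difference was 0.12, and 0.17 over all 9784. Genes share the libraries and are not independent, and no test was run.

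Low channel RNAs varied most between samples of a group. The median coefficient of variation was 86.7% for 24 loci with a mean from 10 to 50, 30.8% for 12 loci from 50 to 200 and 15.4% for 11 loci from 200. At least 1 sample lacked a read in 22 of the first 24 loci and in none of the last 11.

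The 51 gene-strand loci with reads below the level for testing summed to medians of 106 in nuclear and 104 in whole cell samples, ranging from 41.1 to 159 and from 64.9 to 203. The 21 such loci of the opposite strand summed to medians of 30.9 and 34.3.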
